A study of Mus musculus with 3 samples.

Results

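Id1, Id2, Id3 and Id4 make up the Id family of transcriptional inhibitors, and all 4 were found by symbol among the 49452 gene rows that each library holds. Id proteins carry a helix-loop-helix domain but no basic region. They pair with the E proteins (encoded by Tcf3, Tcf4 and Tcf12), which are basic helix-loop-helix (bHLH) transcription factors, and the resulting dimer cannot bind the E-box sequences of target genes. Id genes are classical direct targets of bone morphogenetic protein (BMP) signalling through Smad1, Smad5 and Smad9, and BMP signalling is known to keep hair follicle stem cells at rest.

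The libraries came from wild-type C57BL/6 mice aged 7 weeks, in the second telogen (the resting phase of the hair cycle). Cells of the thermolysin-separated back-skin epidermis were sorted on CD34 and integrin alpha 6 (Itga6). N is all CD34-negative cells, a mixture of epidermal cells other than bulge stem cells. B is the CD34-positive gate with high Itga6 (basal bulge stem cells). S is the CD34-positive gate with low Itga6 (suprabasal bulge stem cells). RNA from 4 mice was pooled per gate, which left 1 library per gate and no replicate error for any value below.

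Levels are FPKM (fragments per kilobase of transcript and per 1e6 mapped fragments) divided by a scaling factor per library, here called scaled FPKM. Being per length, they were set side by side between genes as well as between libraries. The transcript lengths used upstream are not known. An error in them would shift ratios between genes, and the intervals below leave it out. A gene counted as measured at a mean of at least 1 scaled FPKM, which 11575 genes and all 4 Id genes reached. Log2 ratios were taken after adding a pseudocount of 1 to both levels, and a gene counted as higher at a log2 ratio of at least 1, which is 2-fold on that scale. Plain folds are given without the pseudocount. Intervals are exact 95% intervals for counting error only, from the approximate number of fragments behind each value, and leave out amplification and differences between mice.

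The libraries had depths of 31.3 to 35.4 M fragments (M for mega). In S, 71.0% of the summed FPKM was mitochondrial tRNA, against 0% in N and B, so totals were not used for scaling. Setting all libraries to the same summed value would move the median log2 ratio of all genes to -1.41 in S against N and -1.54 in S against B. Directions for S below hold under the scaling used, and for the members the value under the same sum is given where it turns. The sort was visible in the bulge marker list of 8 genes, whose summed level was 1024 in N, 2109 in B and 4019 in S. Most of that sum was the keratin gene Krt15 (1014, 1855 and 3641), while Cd34 itself was at 0.201, 144 and 215. It was also visible in 8 interfollicular and upper follicle markers, at 1915, 697 and 121. The 4 inner bulge markers summed to 0.827 in N, 86.4 in B and 406 in S. In S most of that sum was Fgf18 (0.148, 12.2 and 282). The 5 basal keratinocyte markers summed to 1646, 1337 and 1188, with Krt5 at 818, 810 and 959 and Krt14 at 588, 277 and 12.7. Itga6, the other sort marker, was highest in N, at 115, with 49.3 in B and 33.1 in S. Id genes are also known from endothelial and dermal cells. The 7 endothelial markers summed to 0.251 in N, 0.687 in B and 0.707 in S, with 0 of 7 at a mean of 1. These low sums were thus higher in both bulge libraries than in N. Egfl7, the most abundant of the list, was at 0.0686, 0.350 and 0.318. Plvap was listed at 0 in all 3 libraries and Cdh5 and Emcn at 0 in N. Markers named here as listed at 0, and Col1a2, Dcn, Cd34, Krt14 and Itga6, were picked after their values were seen. Of 9 dermal papilla and fibroblast markers, 2 were measured, Rspo3 and Col1a2. The list sum fell from 6.10 (N) to 3.32 (B) and 2.63 (S), mostly through Rspo3 (5.52, 1.04 and 0.0459). Col1a2 was instead lowest in N (0.103, 1.77 and 1.34). Dcn, like Rspo3, was highest in N (0.440, 0.123 and 0.386). Apart from Rspo3 and Dcn, every marker of this list was lower in N than in B, most of them at very low levels. Col3a1, Corin and Dpt were listed at 0 in N, Dpt in S too. The lists for pericytes, melanocytes and T cells summed to at most 1.80 in any library. Langerhans and myeloid markers summed to 32.9 in N, 11.6 in B and 12.7 in S, and Schwann cell markers to 11.5, 5.53 and 5.92, nearly all of it Erbb3, which keratinocytes also express. The part of these cells in the Id levels was not tested.

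The 4 genes are short and lie on separate chromosomes (mm10 coordinates as deposited). Id1 (ENSMUSG00000042745) spans chromosome 2 from 152736251 to 152737410 on the plus strand, with 2 exons in its principal coding transcript in GENCODE M21. Id2 (ENSMUSG00000020644) spans chromosome 12 from 25093801 to 25096092 on the minus strand, with 3 exons. Id3 (ENSMUSG00000007872) spans chromosome 4 from 136143497 to 136145755 on the plus strand, with 3 exons. Id4 (ENSMUSG00000021379) spans chromosome 13 from 48261427 to 48264036 on the plus strand, with 3 exons. In each gene the coding sequence lies in 2 exons and is short, from 357 bases in Id3 to 483 in Id4. Of all stretches of 50 bases in the Id1 and Id3 transcripts, 0 occurred in a transcript of a gene outside the Id family. Sharing among the 4 Id genes was not searched. Id2 shared 8 of 2433 such stretches with Gm6175, which was listed at 0 in all 3 libraries. Id4 overlaps the antisense genes A330033J07Rik and Gm49291, which hold 79 of its 3800 stretches. Whether strand was used in counting is not given in the sources used here. A330033J07Rik had at most 0.184 scaled FPKM, so its row held little signal beside Id4. Gm49291 has no row, so its level and any part of it in the Id4 value are not known.

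Under the scaling used, all 4 genes were above N in both B and S. The sequence before their RefSeq start sites was therefore searched for motifs of the BMP-Smad and E protein systems. Of the 4 genes, 3 (Id2, Id3 and Id4, not Id1) matched the table of RefSeq promoters used (GRCm38.p6), and the 250 bases before each RefSeq start were searched on both strands. The Id3 window lies inside the deposited Id3 span, which begins further upstream, and the Id2 window overlaps an exon of a longer GENCODE transcript. For these genes the window is thus not upstream of every annotated start. The motif GGCGCC, the GC-rich core bound by Smad1 and Smad5, occurred once in Id2 and once in Id4 and 0 times in Id3. It was present in 9.59% of all 32851 windows of this length. These windows were richer in G and C than most, at 62.8% in Id2, 62.8% in Id3 and 75.6% in Id4, against a median of 52.4%. The pair of matches is shown with flanking bases, 5′ to 3′ on the strand of the gene, with the motif in capitals.
Id2 chr12:25096306-25096335, minus strand: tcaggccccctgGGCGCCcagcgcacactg
Id4 chr13:48260956-48260985, plus strand: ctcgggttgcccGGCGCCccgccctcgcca

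The match began 231 bases before the RefSeq start in Id2 and 148 bases before it in Id4. Only Id2 of these 3 windows held an E-box (CANNTG, in 66.2% of all windows), the kind of site that E proteins bind. It was of the CAGCTG kind, found in 13.0% of windows.
Id2 chr12:25096271-25096300, minus strand: aatttgccacccCAGCTGggctctcgcccg

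CCAAT, the box bound by the factor NF-Y and present in 33.8% of windows, occurred 3 times in Id2 and 2 times in Id4, with 0 matches in Id3. The sites nearest to the start are shown, and the Id4 site is the reverse complement.
Id2 chr12:25096151-25096180, minus strand: ggagcccttccaCCAATggcaattcaggga
Id4 chr13:48260906-48260935, plus strand: actgtcctcctgATTGGctggtcactcccg

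GTCT, the minimal Smad-binding motif, which 82.9% of windows hold, had 2 matches in Id3, 1 in Id2 and 0 in Id4. The full palindrome GTCTAGAC (0.167% of windows), TATAAA (12.4%) and the cAMP response element TGACGTCA (1.55%) had 0 matches in these 3 windows. GGCGCC and CCAAT share no bases in the stretches shown, while each CAGCTG is also a CANNTG. A match is a stretch of letters, not a measured binding site.

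All 4 Id genes had their lowest level in the CD34-negative cells, except that with the same summed value per library Id4 was as low in S as in N (log2 ratio -0.045). Id2 differed most, and Id4 was the lowest member in every library. In a pooled library, fewer cells with a transcript and less of it per cell cannot be told apart.

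Id1, which is induced by BMP in many cell types, had a level of 4.25 scaled FPKM in N, 21.8 in B and 20.9 in S. N was low, and the bulge libraries were close to each other. The fold over N was 5.15 in B (counting interval 4.31 to 6.17) and 4.91 in S (4.11 to 5.91). Between the layers the fold of S over B was 0.955 (0.852 to 1.07), an interval that includes no difference.

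Id2, whose protein can also bind the retinoblastoma protein, was at 3.89 in N, at 55.5 in B and at 118 in S. The 3 levels stood well apart from each other in counting error. The fold over N was 14.3 in B (12.3 to 16.6) and 30.2 in S (26.2 to 35.1). S was 2.12-fold above B (2.01 to 2.23). Behind these levels lie about 193 fragments in N, 2260 in B and 4310 in S.

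Id3, the most abundant family member in N and B, was at 22.7 in N, at 77.9 in B and at 112 in S. Its order was that of Id2, with smaller steps. The fold over N was 3.43 in B (3.21 to 3.68) and 4.93 in S (4.62 to 5.27), and S was 1.44-fold above B (1.37 to 1.51).

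Id4, the family member best known from neural and mammary cells, was at 1.41 in N, at 3.66 in B and at 4.98 in S. These are low levels, resting on about 91.1, 195 and 239 fragments. The fold over N was 2.60 in B (2.02 to 3.38) and 3.54 in S (2.77 to 4.56), and S was 1.36-fold above B (1.12 to 1.65).

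**Figure D1:**
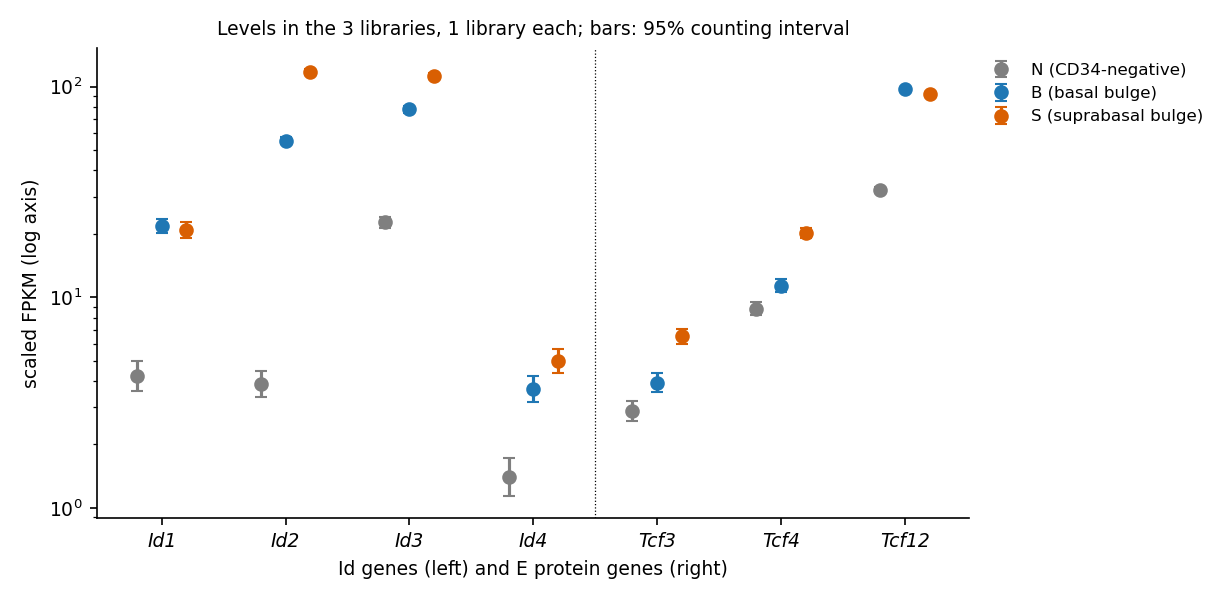
Scaled FPKM (log axis) of the 4 Id genes and the 3 E protein genes in the N, B and S libraries, 1 point per library, with bars for the 95% counting interval. With the scaling used each Id gene is lowest in N (with the same summed value Id4 is as low in S), Id1 is at about the same level in B and S, and Tcf12 is the most abundant E protein gene in each library.

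Of the 4 Id genes, 3 were higher in B than in N by the log2 rule and 0 were lower. Of all measured genes, 7.27% were higher and 7.1% lower. The log2 ratios were 3.53 for Id2, 2.12 for Id1 and 1.74 for Id3. Id4, at 0.95, lay just under the rule, where the pseudocount takes up much of its difference. Their median was 1.93, beside -0.04 over all measured genes. Of all measured genes, 0.631% had a larger ratio than Id2, 2.17% a larger one than Id1, 3.20% than Id3 and 7.72% than Id4. Id4 met the rule under 4 of 8 other settings.

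In S against N, 4 of the 4 were higher and 0 lower, while 9.56% of all measured genes were higher and 10.9% lower. The log2 ratios were 4.60 for Id2, 2.25 for Id3, 2.06 for Id1 and 1.31 for Id4, with a median of 2.16 beside 0.02 over all measured genes. Id2 ranked near the top, with 29 genes at a larger ratio. With every library set to the same summed value, which the mitochondrial tRNA of S dominates, Id2 alone met the rule, at 2.83, with Id3 at 0.40, Id1 at 0.36 and Id4 at -0.045. B and S are set against the same N library, so their ratios share its error. In both comparisons 4.6% of measured genes were higher, and Id1, Id2 and Id3 were among them.

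Between the layers, 1 of the 4 was higher in S than in B and 0 were higher in B. Of measured genes, 3.89% were higher in S and 5.93% in B. This was Id2, with a log2 ratio of 1.07. Id3 had 0.52, Id4 0.36 and Id1 -0.06, beside a median of 0.06 over all measured genes. The Id2 call is at the edge of the rule. Its log2 ratio was 0.98 with values as deposited, 0.96 with median-of-ratios scaling over coding genes and 1.02 with the same summed value over coding nuclear genes. It was -0.98 with the same summed value over all genes, where Id3 was at -1.54, Id4 at -1.27 and Id1 at -2.02.

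**Figure D2:**
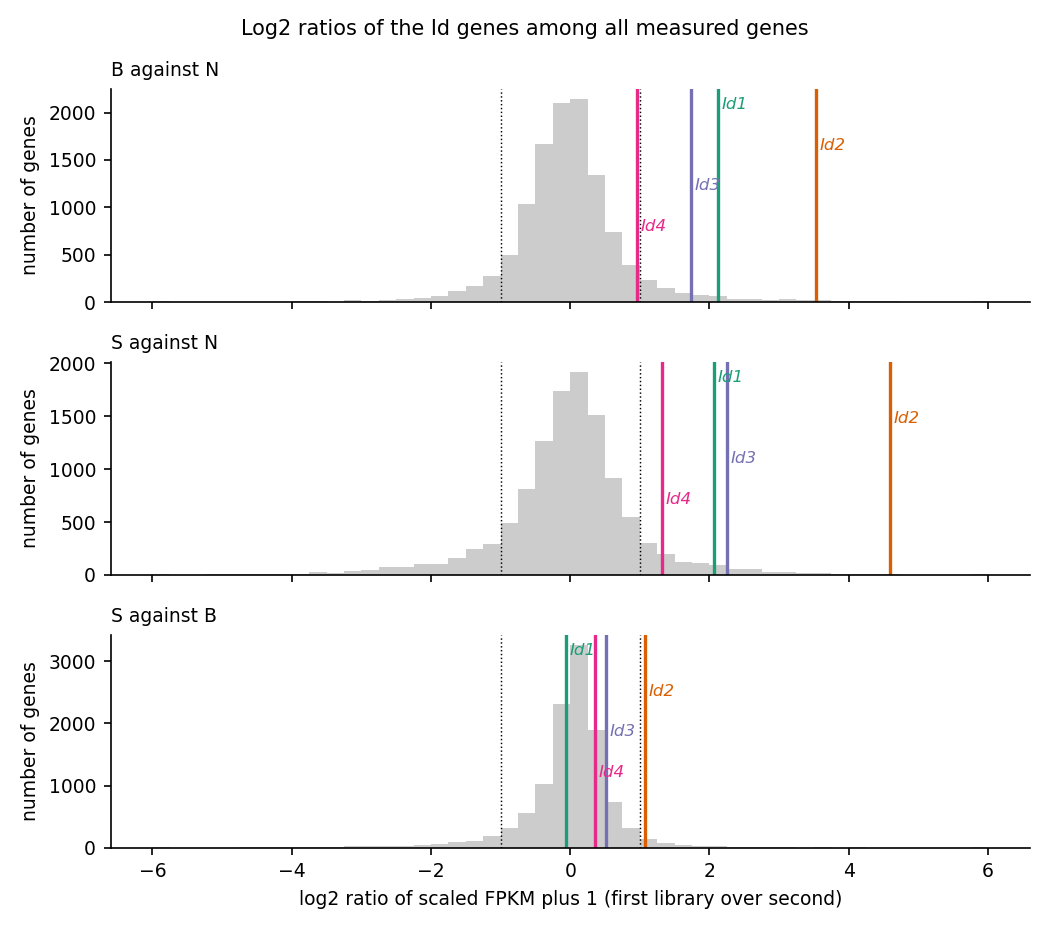
Histograms of the log2 ratios of all 11575 measured genes (grey, number of genes per bin) with the Id genes as coloured lines and the 2-fold rule dotted. In both comparisons with N the Id genes lie in the right tail, Id2 farthest out at 3.53 and 4.60, while between S and B the range is from -0.06 for Id1 to 1.07 for Id2.

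Ratios between members of 1 library do not depend on scaling between libraries, and they also differed between the gates. They do depend on the transcript lengths used upstream, which are not known. Id2 was at 0.171 of the Id3 level in N (0.146 to 0.200), 0.712 in B (0.674 to 0.752) and 1.05 in S (1.01 to 1.10). Thus Id3 was well above Id2 in N, less so in B, and the pair was nearly level in S. Id1 and Id2 were at about the same level in N, where Id1 over Id2 was 1.09 (0.877 to 1.35), an interval that includes 1. In B this ratio was 0.394 (0.360 to 0.430) and in S 0.177 (0.162 to 0.194), and Id2 was well above Id1. Id3 over Id1 was 5.35 in N (4.52 to 6.37), 3.57 in B (3.28 to 3.89) and 5.37 in S (4.92 to 5.88). The ratio was thus close in N and S, and lower in B.

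The order of levels was Id3, Id1, Id2 and Id4 in N, with Id1 and Id2 not separated by counting error. It was Id3, Id2, Id1 and Id4 in B, and Id2, Id3, Id1 and Id4 in S. Within their libraries, Id2 stood at percentile 42.5 of measured genes in N, 95.6 in B and 97.6 in S. Id3 stood at 87.0, 96.7 and 97.5, and Id1 at 45.2, 88.0 and 86.1. Id4 stayed in the lower and middle range, at 14.1, 40.5 and 50.4.

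The summed Id level was 32.2 scaled FPKM in N, 159 in B and 255 in S. Id3 held 70.4% of that sum in N, 49.0% in B and 43.9% in S. Id2 held 12.1%, 34.9% and 46.0%. Id1 held 13.2%, 13.7% and 8.16%, and Id4 4.36%, 2.30% and 1.95%. The sum in N was thus mostly Id3. The joint share of Id2 and Id3 was nearly the same for N (82.5%) and B (84.0%), and larger for S (89.9%).

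The E proteins, the partners that Id proteins bind, were read beside them. Tcf3 and Tcf4 are here the bHLH genes of that name, not the Wnt pathway genes Tcf7l1 and Tcf7l2. Tcf12 was at 32.3 in N, at 97.0 in B and at 92.6 in S. It was 3.01-fold (2.90 to 3.11) and 2.87-fold (2.77 to 2.98) above N, and B and S were close. Tcf4 was at 8.82 in N, at 11.4 in B and at 20.2 in S, and Tcf3 at 2.88, 3.93 and 6.52. Both were highest in S. By the rule, 1 of 3 E protein genes was higher in B than in N (Tcf12) and 2 of 3 in S than in N (Tcf12 and Tcf4). The shares of all measured genes were 7.27% and 9.56%. Tcf3 had a log2 ratio of 0.96 in S against N, just under the rule.

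Id transcripts exceeded those of their partners in the bulge libraries but not in N. Summed Id over summed E protein level was 0.734 in N, 1.42 in B and 2.14 in S, a ratio that needs no scaling between libraries. It was 1.93-fold higher in B than in N and 2.92-fold higher in S than in N. The ratio is of transcripts and depends on the transcript lengths used upstream, and protein was not measured.

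**Figure D3:**
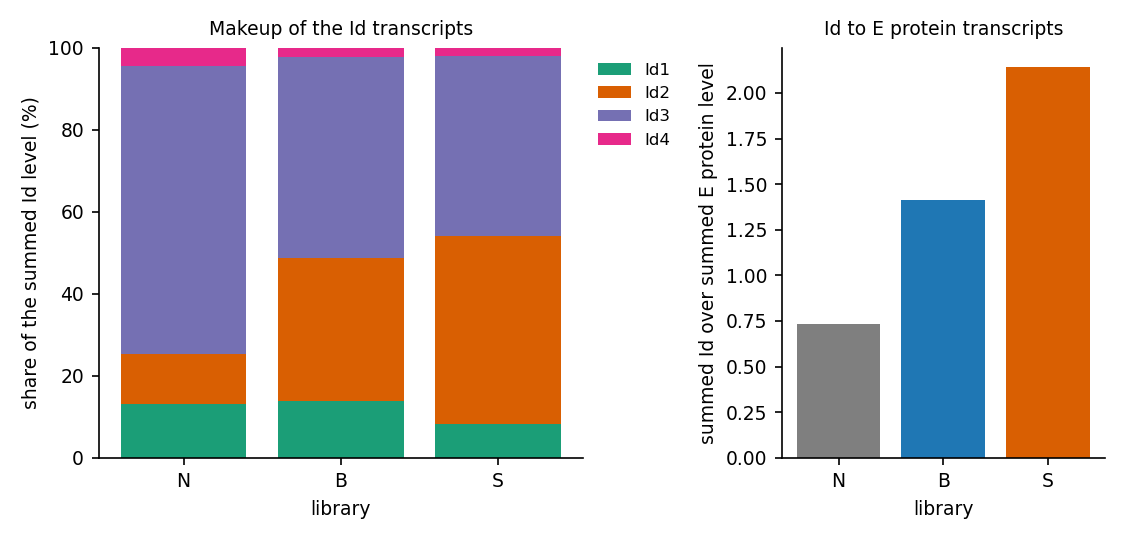
Left, share of each Id gene in the summed Id level (percent) of the N, B and S libraries. Right, summed Id level over summed E protein level (ratio, 1 bar per library). The share of Id2 is 12.1% in N and 46.0% in S, and the ratio is 0.734 in N and 2.14 in S.

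Tissue-restricted bHLH factors, which form DNA-binding pairs with E proteins, were mostly at low levels, with 3 of 32 measured. Mesp2 was at 8.87 in N, at 4.28 in B and at 11.8 in S. The other measured genes, named after their values were seen, were the tendon factor Scx (0.0755, 2.56 and 5.39) and Ascl2 (8.47, 3.22 and 1.06). Scx thus followed the order of Id2, and Ascl2 the reverse. Of 12 Hes, Hey and Bhlhe repressor genes, 4 were measured. In B against N 0 were higher and 2 lower, and in S against N 2 were higher and 1 lower. Over all measured genes, 7.27% were higher and 7.1% lower in B against N, and 9.56% and 10.9% in S against N. Hes1, a Notch target, was at 20.3 in N, at 6.84 in B and at 11.5 in S, and the clock-linked repressor Bhlhe40 at 13.6, 3.49 and 0.816. The genes higher in S than in N were Hey1 (0.682, 0.893 and 5.77) and Hes6 (0.139, 0.691 and 2.37). Both were named after their values were seen.

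The BMP pathway upstream of the Id genes was taken by role. Beside the counts by role, 7.27% of all measured genes were higher and 7.1% lower in B than in N. In S against N, 9.56% were higher and 10.9% lower. Ligand transcripts did not follow the Id genes as a group. Of 6 measured BMP ligand genes, 1 was higher and 2 lower in B than in N, and the same counts held for S against N. Their medians were -0.26 and -0.68. Bmp4 was at 12.7 in N, at 3.30 in B and at 0.362 in S, the reverse order of Id2. Bmp6, a low gene of the inner bulge named after its values were seen, was at 0.0435, 0.399 and 3.77. Gdf10, also named so, was higher in B, at 3.02, with 0.142 in S and a listed value of 0 in N.

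Most receptor genes were within the 2-fold rule. Of 8 measured receptor and co-receptor genes, 1 was higher and 1 lower in B than in N, and 0 higher and 1 lower in S than in N, with medians of 0.04 and 0.29. Bmpr2, the type II BMP receptor, was at 21.7 in N, at 17.9 in B and at 16.4 in S. Acvr2a, an activin and BMP type II receptor, was at 9.10, 12.8 and 16.2. The co-receptor genes Rgma (5.07, 6.31 and 10.4) and Neo1 (11.9, 17.5 and 16.1) were likewise within 2-fold on the log2 scale. The genes past the rule, named after their values were seen, were the co-receptor gene Rgmb (9.20, 2.83 and 2.08), lower in both bulge libraries, and the receptor gene Acvr2b (0.203, 1.58 and 1.23), higher in B.

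Of 4 Smad genes, 1 was higher in B than in N and 2 in S than in N. Smad1, which carries the BMP signal to the nucleus, was at 5.44 in N, at 6.51 in B and at 12.04 in S. Smad5 was at 12.5, 11.6 and 13.8, and the common partner Smad4 at 18.1, 11.8 and 16.4. Smad9, the third of the BMP-activated Smads and named after its values were seen, was at 0.103 in N, at 1.79 in B and at 5.38 in S. Its order was that of Id2, Id3 and Id4.

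Antagonists, which bind BMP ligands outside the cell, were higher in the bulge libraries in part. Of 8 measured, 3 were higher and 0 lower in B than in N, and likewise in S than in N, with medians of 0.75 and 0.58. Of all measured genes, 7.27% were higher in B than in N and 9.56% in S than in N. Sostdc1, the most abundant of the list and named after its values were seen, stayed within the rule. It was at 68.7 in N, at 79.8 in B and at 87.0 in S. Grem1 was at 0.393 in N, at 33.3 in B and at 12.7 in S, and Nbl1 at 2.07, 12.9 and 15.8. Nog, which encodes noggin and was named after its values were seen, was listed at 0 in N with 1.19 in B and 4.02 in S. Fst, the follistatin gene, was at 9.37, 16.0 and 11.6, and Twsg1, a BMP-binding modulator, at 29.99, 19.1 and 19.9.

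Other BMP-induced genes were mixed. Of 6 measured, 1 was higher and 1 lower in B than in N, and 2 higher and 1 lower in S than in N. Gata3, a transcription factor gene of the inner root sheath and epidermis, was at 43.6 in N, at 13.2 in B and at 8.51 in S. The other measured genes were named after their values were seen. Smad7 (1.09, 2.11 and 2.63), Bambi (0.341, 1.16 and 2.13) and Hey1 (0.682, 0.893 and 5.77) had the order of Id2 at much lower levels. Smad7 did not pass the rule against N, with log2 ratios of 0.57 in B and 0.80 in S. Dlx3 (0.0701, 3.36 and 0.638) and Msx2 (2.01, 4.22 and 1.83) were instead highest in B. Of 7 measured genes of the TGF-beta branch, 1 was higher and 1 lower in B than in N, and 0 higher and 2 lower in S than in N. Its receptor gene Tgfbr1 was at 5.23, 4.33 and 6.73, and Smad2 at 20.7, 16.2 and 17.8.

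**Figure D4:**
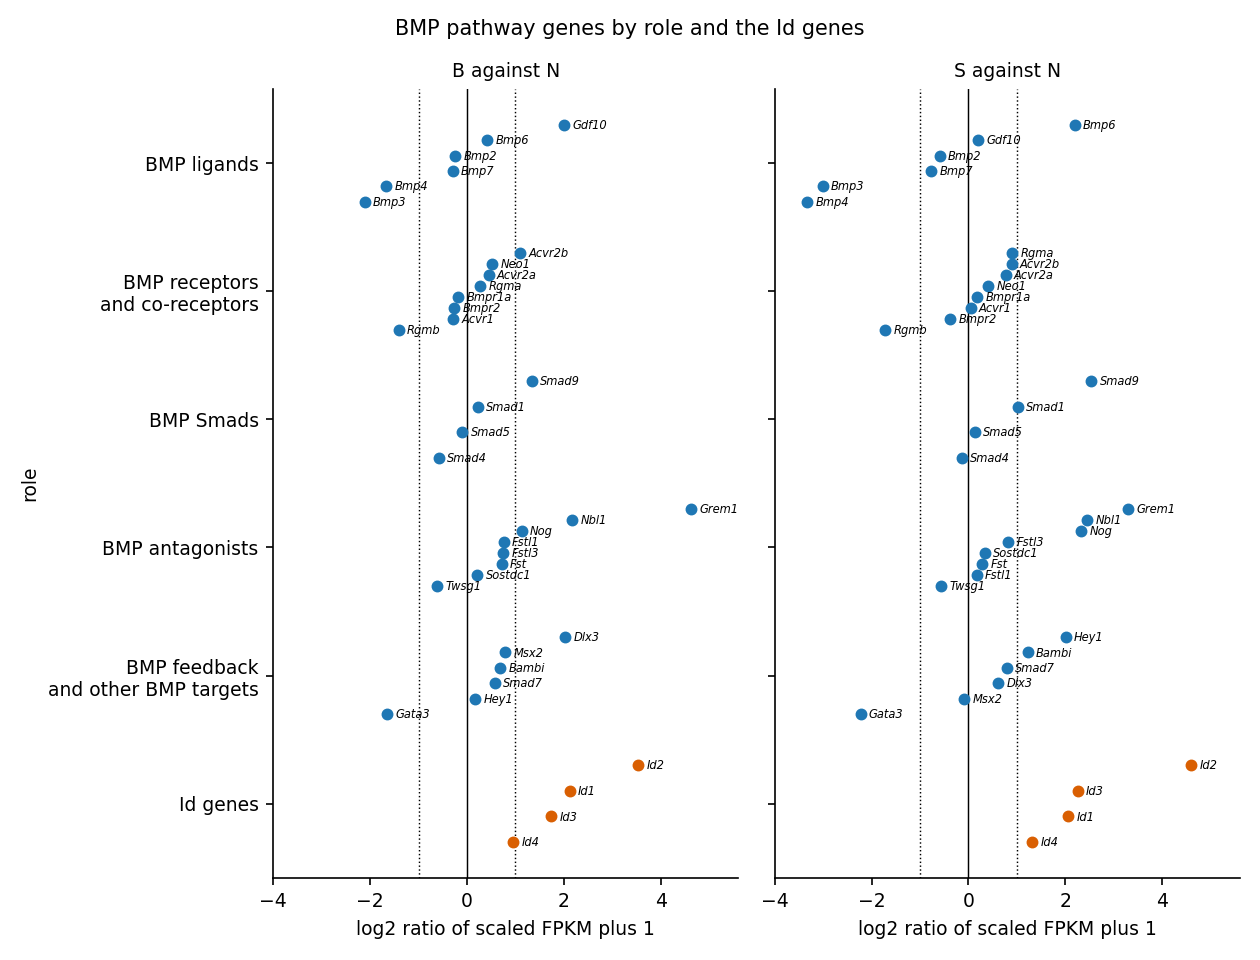
Log2 ratio of each measured BMP pathway gene by role (blue) and of the Id genes (orange), B against N on the left and S against N on the right, with the 2-fold rule dotted. The 4 Id genes lie at 0.95 to 3.53 on the left and 1.31 to 4.60 on the right, while ligand and receptor genes lie on both sides of 0.

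Id proteins are known to oppose the activation of cyclin-dependent kinase (CDK) inhibitor genes by E proteins. Of 6 measured CDK inhibitor genes, 0 were higher and 1 lower in B than in N, and 3 were higher and 0 lower in S than in N. Over all measured genes, 7.27% were higher and 7.1% lower in B, and 9.56% and 10.9% in S. Cdkn1a, which encodes p21 and is a known E protein target, was at 126 in N, at 93.9 in B and at 184 in S. Cdkn1b, the p27 gene, was at 9.25, 11.4 and 25.5, and Cdkn2d at 11.96, 5.11 and 7.61. Under the scaling used, Cdkn1a and Cdkn1b were highest in S, with log2 ratios against N of 0.54 and 1.37. With the same summed value per library, the median of the measured CDK inhibitor genes in S against N went from 0.84 to -0.87. A link between the Id levels and these genes was not tested. Of the 3 pocket protein genes, which include the Id2 partner Rb1, 0 passed the rule in any comparison under the scaling used. Most measured genes stayed within it too, with 3.89% higher and 5.93% lower in S against B. With the same summed value the pocket protein median was -1.21 in S against N and -1.21 in S against B. Rb1 was at 8.87, 7.48 and 14.0, and Rbl2 at 5.52, 5.72 and 7.40.

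Of 5 genes acting on Id protein stability, 0 passed the rule in any comparison under the scaling used. Most measured genes stayed within it too. Shares higher and lower were 7.27% and 7.1% in B against N and 9.56% and 10.9% in S against N. In S against B they were 3.89% and 5.93%. With the same summed value per library, the median of these 5 genes was -1.46 in S against N and -1.63 in S against B. Usp1, the deubiquitinase that stabilises Id proteins, was at 6.09, 6.71 and 7.45, and its cofactor gene Wdr48 at 18.3, 12.8 and 15.6. Cops5 was at 94.8, 60.8 and 75.3, and the ubiquitin ligase gene Smurf2 at 14.5, 13.7 and 18.0. Id genes are often linked to dividing cells, so cell division genes were read as well. Of 10 measured S, G2 and M phase genes, 0 were higher and 7 lower in B against N. The same counts held for S against N. Among all measured genes, 7.27% were higher and 7.1% lower in B against N, and 9.56% and 10.9% in S against N. Whether the Id levels and cell division are linked was not tested. Top2a was at 12.6 in N, at 3.44 in B and at 0.879 in S, and Ube2c at 18.1, 4.98 and 0.708. The replication genes Pcna (62.3, 45.1 and 50.9) and Mcm6 (5.68, 4.58 and 5.42) did not pass the rule.

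Genes with the most similar pattern were sought among 5260 coding genes with a mean of at least 5, by the distance between pairs of log2 ratios over N in the 3 libraries. For Id1 the nearest were Plpp3, Enpp5, Nckap5, Ift57 and Dmd, at distances of 0.115 to 0.258. Plpp3, a lipid phosphatase gene, was at 2.56 in N, at 13.4 in B and at 13.4 in S. For Id2 they were Kcnk2, Col6a1, Adamtsl4, Ptn and Calml3, at 0.0913 to 0.380. The potassium channel gene Kcnk2 was at 0.0671, 11.4 and 26.5, and Ptn, which encodes the growth factor pleiotrophin, at 21.1, 318 and 510. For Id3 they were Cadm1, Sox9, Rapgef4, Trps1 and Nuak1, at 0.123 to 0.175. Sox9, a transcription factor gene of follicle stem cells, was at 4.24, 18.0 and 25.2. For Id4 they were Atp13a2, Arid5b, Golim4, Ppp2r3a and Lztfl1, at 0.0181 to 0.0867. Arid5b, a chromatin factor gene, was at 7.27, 14.5 and 19.4. Among the Id genes, Id1 and Id3 were the closest pair, at a distance of 0.433, and Id2 and Id4 the farthest apart, at 4.18. Nearness here means like log2 ratios after the pseudocount, over 3 libraries. For genes near 0 in N, such as Kcnk2, the plain folds over N are far larger than those of the Id gene.

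**Figure D5:**
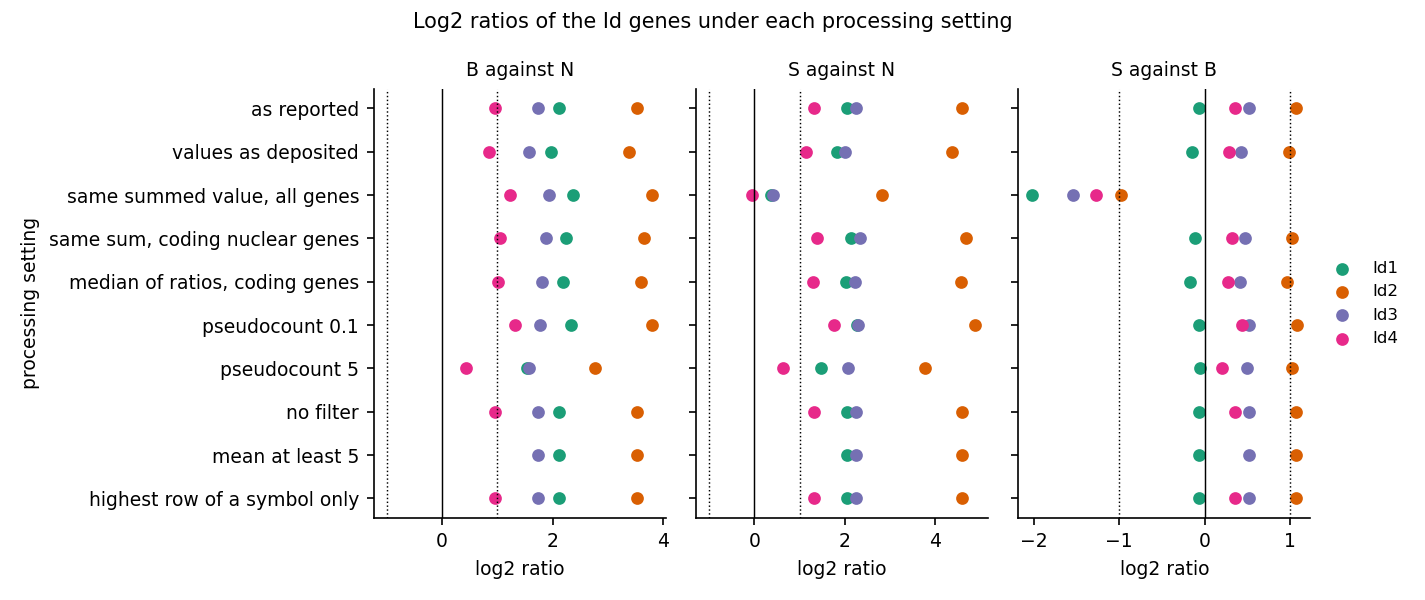
Log2 ratios of the 4 Id genes (colours) under each processing setting (rows) in the 3 comparisons, with the 2-fold rule dotted. Setting all libraries to the same summed value shifts S against N and S against B to the left for all 4 genes, while in B against N every point stays above 0, from 0.43 to 3.81.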

How the data were processed

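The authors deposited 1 table of FPKM values per library with mm10 gene positions, and the unit is per the file headers for N and S. The B header names the population only, and its unit was taken from the values. TopHat2 2.0.12, Cufflinks 2.1.1 and DESeq2 are named, without their roles, per the submitters' processing notes. Per the labels' protocols, pooled RNA was preamplified from poly(T) and random primers, so ribosomal and mitochondrial RNA is retained. Mitochondrial tRNA made up 0% of the summed FPKM in N and B and 71.0% in S. The cause of this difference was not tested. The sources used here give no annotation, filters or strand.

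Symbols were found for 49109 rows in a table of gene names and for 86 in GENCODE M21. The 257 rows without a symbol were left out. Rows of 1 symbol were summed and divided by median-of-ratios factors over 18559 genes (1.10 for N, 0.981 for B, 0.923 for S). Low values of single-exon genes of at least 3000 bases rise in fixed steps of 1 fragment, which gave the depth. Of the values worth fewer than 10 fragments, 95.7% to 97.2% came within 0.1 of a whole number. The depth was chosen to make this share largest. Chance would give 20% for a depth fixed beforehand, so that is not the chance level here. Fragments per gene are level times depth times the length of the principal GENCODE transcript within the deposited span, so they are approximate. Intervals are exact Poisson or Clopper-Pearson intervals (SciPy 1.17.1). With 1 library per group no test was run. The calculations were tested on simulated data.

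Named genes were, by rule, the Id and E protein genes, up to 4 members of each other list with the largest log2 ratio and a mean of at least 5, or else the most abundant, and the 5 genes nearest to each Id gene. Other names are said to be chosen after their values were seen. The members and lists were chosen with earlier results of these data known. Other scalings, pseudocounts and filters were tried.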

Additional observations from a re-analysis of the deposited data

How the results depend on the processing

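Every Id gene measured kept a log2 ratio above 0 in B against N under all 9 other settings tried (8 for Id4, which a mean of at least 5 removes), in a range of 0.43 to 3.81. The number of Id genes past the 2-fold rule in B against N was 3 or 4 under each setting. In S against N it was 3 or 4 except with the same summed value, where it was 1. In S against B it was 0 with values as deposited, 0 with median-of-ratios scaling over coding genes, and 3 with the same summed value, all 3 of them higher in B (Id1, Id3 and Id4). The same summed value moved the median log2 ratio of all genes to -1.41 in S against N and -1.54 in S against B, and mitochondrial tRNA holds 71.0% of that sum in S. Under it the log2 ratio of Id4 in S against N turned to -0.045, that of Id2 in S against B to -0.98, and the median of the E protein genes in S against N to -0.55. Relative to the median of all genes under that setting, Id4 was at 1.36 and Id2 at 0.55. With a pseudocount of 5, Id4 was at 0.43 in B against N and 0.64 in S against N. No paired analysis was possible because each group has 1 library, and for the same reason no library could be left out. Depth limits Id4 most, with a counting SD of 10.5% in N, while Id2 and Id3 in S have 1.52% and 1.56%. Amplification and mouse-to-mouse differences have no measured error here.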
